A study of Mus musculus with 27 samples.

Results

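The mitochondrial ribosomal protein genes are the nuclear genes that encode the protein part of the ribosome inside mitochondria. They were taken as every gene in the deposited gene table whose name is Mrpl or Mrps followed by a number and at most 1 letter, which gave 78 of 51826 features. All 78 passed the filter on low counts that left 19969 genes for testing. By textbook assignment, 51 of the 78 encode proteins of the large subunit, 26 encode proteins of the small subunit, and Mrps36 encodes a subunit of the 2-oxoglutarate dehydrogenase complex in spite of its name. Of the ribosomal members, 46 have a bacterial counterpart and 31 are mitochondria-specific proteins. A further 5 features with Mrp names are pseudogenes and were left out by the rule.

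RNA came from whole hippocampi of ICR mice, an outbred strain, that had a sham operation or ovariectomy (OVX, removal of the ovaries, the main source of estrogen). Animals of either surgery were given saline or Xmo (xanthohumol, a flavonoid from hops). There were 3 sham saline, 4 sham Xmo, 4 OVX saline and 4 OVX Xmo libraries, and age, dose and duration are not given in the labels. The labels do not say whether each replicate is its own animal, and a p-value here measures only the spread between these samples.

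The mitochondrial ribosome translates the few proteins encoded on mitochondrial DNA, all of them parts of the respiratory chain and ATP synthase. Its ribosomal RNAs are made in the mitochondrion, while its proteins are made in the cytosol and imported, so its assembly draws on both genomes. Neurons depend heavily on oxidative phosphorylation, and estrogen is known to influence mitochondrial function in brain.

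Libraries held 20848661 to 39140593 gene counts each. Summed levels of 7 hippocampal neuron markers lay between 2666 and 3714 unscaled CPM (each library's counts rescaled to 1 common total) in every library, and these markers of the labelled tissue were thus present throughout. The sham saline group differed from the others in the mean of several sums. Among the sums given in this paragraph, its libraries were free of overlap with all others only for microglial markers. The 13 mitochondrially encoded protein genes took 19.0%, 34.1% and 24.2% of all counts in them, against 11.9% to 19.2% in the other 12 libraries. Microglial markers summed to 111 ± 12.4 CPM in sham saline (SD, n = 3) and to group means of 161 to 178 CPM elsewhere. Neutrophil markers summed to 13.3 ± 14.1 CPM in sham saline against group means of 0.442 to 2.6 CPM. Their sums in the sham saline libraries were 4.13, 29.5 and 6.29 CPM, while sham Xmo library 4 had 5.5 CPM. Endothelial markers summed to 118 ± 22.1 CPM against group means of 87.8 to 95 CPM, oligodendrocyte markers to 2020 ± 379 against 2499 to 2878 CPM, and astrocyte markers to 1023 ± 201 against 1268 to 1323 CPM. Choroid plexus markers ranged from 70.7 to 8932 CPM over the libraries, with group means of 204 to 3188 CPM. Red blood cell markers ranged from 289 to 5285 CPM, and sham Xmo library 4 was the highest in both. These marker sums are unscaled, and the mitochondrial share, larger on average in sham saline, lowers them there. In OVX saline against sham saline, the microglial genes Csf1r and Tmem119 rose and the endothelial genes Flt1 and Ly6c1 fell by edgeR's test. That is 2 of 4 markers in each list, where 6.24% of all genes passed. Of the 4 neutrophil markers tested, 3 fell (S100a9, Retnlg and Ngp). None of the 3 oligodendrocyte and 4 astrocyte markers passed in that comparison, with median log2 differences of 0.08 and 0.18. In whole tissue, fewer cells of a type and less RNA per cell cannot be told apart, and the part of these differences in the results on the ribosomal protein genes was not tested. Because levels as a share of all counts fall when mitochondrial RNA takes more of a library, CPM values below are scaled by TMM factors (trimmed mean of M-values) unless stated otherwise.

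Per transcript length, the 78 members spanned a wide range of levels. Their median was 30.1 TPM (the deposited share of transcripts, corrected for length, averaged over the 4 group means), with 31.4 TPM for the large subunit and 26.0 TPM for the small. The highest were Mrpl42, a mitochondria-specific protein of the large subunit, at 148 TPM, then Mrpl41 at 94.3, Mrpl20 at 88.4, Mrpl30 at 80.6 and Mrps15, a small-subunit protein that binds the ribosomal RNA, at 66.1 TPM. The ranges of these 5 neighbours over the 15 libraries overlapped. The lowest were Mrpl53 at 4.40 TPM, Mrpl17 at 5.37, Mrps35 at 6.79, Mrpl47 at 7.75 and Mrpl1 at 8.89 TPM. Mrpl53 lies wholly within the predicted gene Gm42688, which had a mean of 626 counts, and Mrpl17 within Gm15645, which had 11.7. The sources used here do not give whether counting used strand. Reads of Mrpl53 or Mrpl17 may thus have been split or left out, which was not tested. Of the 3 Mrps18 paralogs, which derive from the same bacterial protein and sit at different places of the ribosome, Mrps18a had 51.4 TPM, Mrps18b 33.1 TPM and Mrps18c 30.6 TPM. Mrps18a and Mrps30 (13.8 TPM) are named for the small subunit but encode proteins of the large one.

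**Figure D1:**
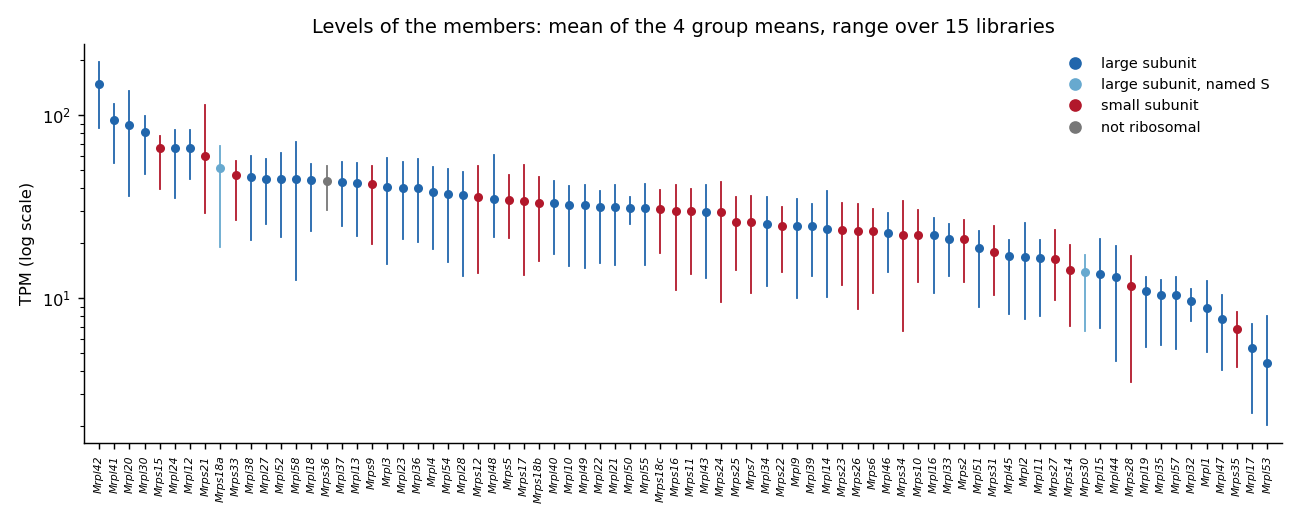
Level of each of the 78 members in TPM on a log axis, ordered by level; points are the mean of the 4 group means, lines the lowest and highest of 15 libraries, and colours the subunit. Mrpl42 stands highest at 148 TPM and Mrpl53 lowest at 4.40 TPM, and large- and small-subunit genes are mixed along the order.

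OVX saline was compared with sham saline to see whether loss of the ovaries changed these genes. Mrpl28, Mrps28, Mrpl9, Mrps7 and Mrpl24 rose and Mrpl50 fell, by edgeR's quasi-likelihood test with Benjamini-Hochberg adjustment over all genes tested. These 6 are 7.69% of the members, near the 6.24% of all genes that passed in this comparison, 3.65% higher and 2.59% lower. The 5 that rose all have bacterial counterparts, as do 46 of the 78 members. They came from both subunits, with 3 of 51 large-subunit and 2 of 26 small-subunit genes. Mrpl50, the gene that fell, is mitochondria-specific.

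Mrpl28 (ENSMUSG00000024181, GRCm38.p6 chromosome 17, 26123520 to 26126613, plus strand), a large-subunit protein, had 16.4, 13.6 and 15.6 CPM in the 3 sham saline libraries. OVX saline had 22.7, 24.7, 23.3 and 23.4 CPM, sham Xmo 18.6, 22.5, 22.3 and 21.5 CPM, and OVX Xmo 23.0, 20.8, 22.4 and 20.5 CPM. Every library of the other 3 groups was above every sham saline library. The difference of OVX saline from sham saline was 0.63 on the log2 scale (SE 0.10, adjusted p = 0.0094 by edgeR), a 1.55-fold higher level. Mrpl28 passed under all 14 other settings of the analysis, 7 of which left out 1 of the 7 libraries compared, with adjusted p-values from 1.98e-06 to 0.0481.

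Mrps28 (ENSMUSG00000040269, chromosome 3, 8802146 to 8923918, minus strand), a small-subunit protein, stood at 3.91, 2.88 and 3.49 CPM in the sham saline libraries, and OVX saline had 5.71, 5.54, 5.43 and 5.73 CPM. Under Xmo it had 4.84, 5.55, 5.72 and 6.93 CPM after sham surgery and 5.48, 5.81, 5.90 and 5.07 CPM after OVX. Again no sham saline library reached any library of the other groups. The difference of OVX saline from sham saline was 0.70 (log2, SE 0.15, edgeR adjusted p = 0.0198), and it passed under 9 of the 14 other settings.

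Mrpl9 (ENSMUSG00000028140, chromosome 3, 94443318 to 94451130, plus strand), a large-subunit protein, had 20.1, 16.5 and 16.5 CPM in the sham saline libraries and 23.1, 24.1, 23.6 and 26.4 CPM in the OVX saline ones. In the sham Xmo libraries it had 21.1, 22.8, 24.7 and 23.4 CPM, and OVX Xmo gave 23.0, 25.6, 25.1 and 19.1 CPM. Its OVX saline and sham saline libraries did not overlap, while 1 OVX Xmo library lay within the sham saline range. The log2 difference of OVX saline from sham saline was 0.46 (SE 0.12, edgeR adjusted p = 0.0362), and it passed under 6 of the 14 other settings.

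Mrps7 (ENSMUSG00000046756, chromosome 11, 115603925 to 115608036, plus strand), a protein of the head of the small subunit, was at 23.6, 19.8 and 23.3 CPM after sham surgery with saline and at 29.8, 26.8, 31.4 and 30.4 CPM after OVX with saline. With Xmo the sham libraries had 22.4, 29.0, 26.9 and 24.6 CPM and the OVX libraries 29.2, 30.9, 26.3 and 24.7 CPM. All OVX libraries exceeded the sham saline ones, and sham Xmo overlapped both. The log2 difference of OVX saline from sham saline was 0.41 (SE 0.11, edgeR adjusted p = 0.0459), and it passed under 3 of the 14 other settings.

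Mrpl24 (ENSMUSG00000019710, chromosome 3, 87919506 to 87923672, plus strand), a large-subunit protein, was at 35.5, 43.4 and 33.4 CPM in the sham saline libraries, while OVX saline had 51.3, 49.5, 44.0 and 46.3 CPM. The sham Xmo libraries had 45.7, 49.5, 47.3 and 48.1 CPM, and OVX Xmo had 46.3, 39.9, 40.0 and 40.7 CPM. Both sham Xmo and OVX saline lay above sham saline without overlap, and 3 of 4 OVX Xmo libraries lay within its range. The log2 difference of OVX saline from sham saline was 0.35 (SE 0.10, edgeR adjusted p = 0.0485), and it passed under 4 of the 14 other settings. Mrpl24 shares 25.7% of its span with Rrnad1 on the opposite strand, Mrpl9 shares 7.65% with Oaz3, and Mrps7 shares its ends with Gga3 and Mif4gd, so reads of these partners may be among theirs.

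Mrpl50 (ENSMUSG00000044018, chromosome 4, 49512596 to 49521093, minus strand), a large-subunit protein, had 41.0, 56.6 and 47.7 CPM in the sham saline libraries, and the OVX saline libraries had 37.8, 35.3, 33.0 and 30.3 CPM. Its levels under Xmo were 42.8, 38.2, 34.0 and 33.9 CPM after sham surgery and 32.3, 31.0, 36.2 and 43.2 CPM after OVX. The OVX saline libraries were all below the sham saline ones, and both Xmo groups overlapped sham saline. The log2 difference was -0.51 (SE 0.14, edgeR adjusted p = 0.0427), and it passed under 3 of the 14 other settings. When counts were divided by library totals without TMM scaling it shrank to -0.16, and under the others it lay between -0.61 and -0.39.

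Leaving out any 1 of the 7 libraries compared left between 1 and 4 of the 78 genes past the test. That is 1.28% to 5.13% of the members, where 0.391% to 4.78% of all genes passed, and Mrpl28 was among them each time. Without sham saline library 2, which had the highest mitochondrial share, 2 genes passed, Mrpl28 and Mrpl24 (2.56%, all genes 0.91%). Without sham saline library 3, or without OVX saline library 2 or 4, Mrpl28 passed alone (1.28%, all genes 0.391%, 1.3% and 1.35%). Without OVX saline library 1 or 3, Mrpl28 and Mrps28 passed (2.56%, all genes 2.39% and 2.18%).

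**Figure D2:**
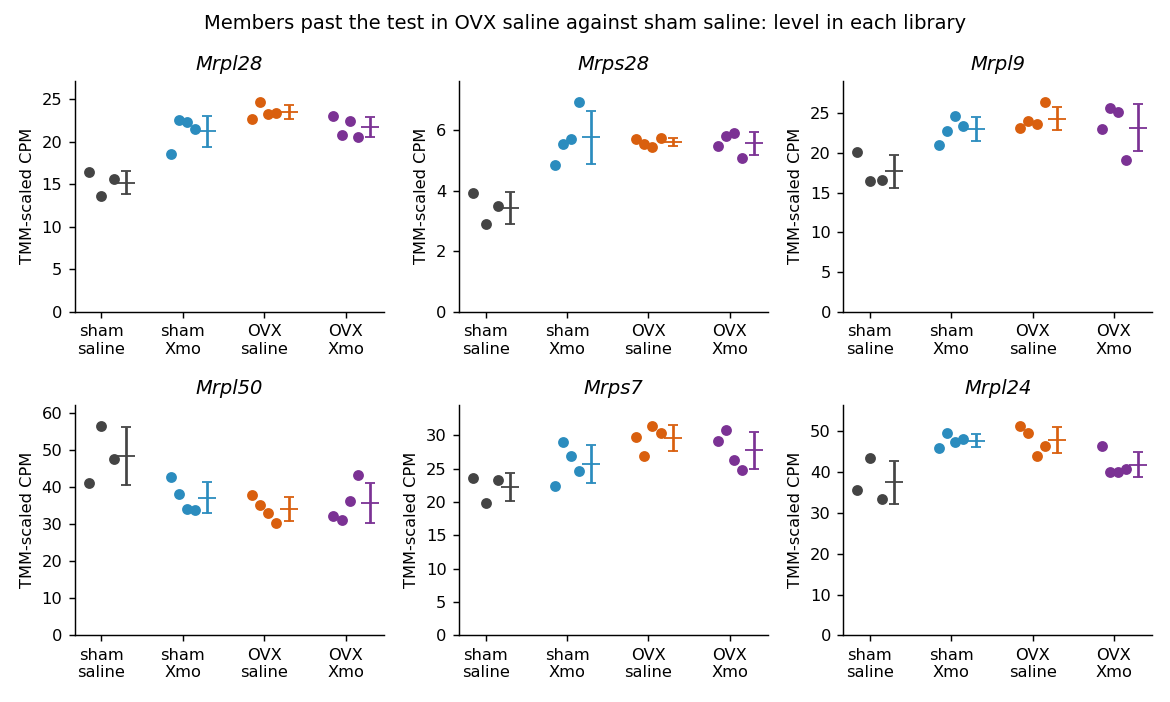
Level in TMM-scaled CPM of the 6 members past the test in OVX saline against sham saline; points are libraries, and bars to their right the group mean and SD (n = 3 in sham saline, n = 4 elsewhere). For Mrpl28 and Mrps28 the 3 sham saline libraries lie below all 12 others, and for Mrpl50 the OVX saline libraries lie below the sham saline ones.

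The upstream sequences of the called genes are shown for 2 members that rose, Mrpl28 and Mrpl9, and for Mrpl50, which fell, and an NRF1 motif is present in the Mrpl9 sequence and absent from the other 2. Windows of 250 bases before to 50 bases after the RefSeq start (GRCm38.p6) were found for 69 of the 78 members, Mrps28 not among them. The 250 bases upstream of the start of Mrpl28 (chr17:26123253-26123502, plus strand), Mrpl9 (chr3:94443086-94443335, plus strand) and Mrpl50 (chr4:49521084-49521333, minus strand) read, 5′ to 3′, as follows.
Mrpl28: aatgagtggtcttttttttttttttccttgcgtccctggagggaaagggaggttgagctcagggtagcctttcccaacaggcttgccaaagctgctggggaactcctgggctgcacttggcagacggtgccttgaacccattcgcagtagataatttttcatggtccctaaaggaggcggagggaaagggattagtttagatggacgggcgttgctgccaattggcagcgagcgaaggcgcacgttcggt
Mrpl9: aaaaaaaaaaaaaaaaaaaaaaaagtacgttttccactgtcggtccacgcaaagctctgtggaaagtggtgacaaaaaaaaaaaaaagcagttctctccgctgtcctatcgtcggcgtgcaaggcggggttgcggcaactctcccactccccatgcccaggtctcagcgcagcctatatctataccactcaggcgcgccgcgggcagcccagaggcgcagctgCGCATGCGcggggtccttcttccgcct
Mrpl50: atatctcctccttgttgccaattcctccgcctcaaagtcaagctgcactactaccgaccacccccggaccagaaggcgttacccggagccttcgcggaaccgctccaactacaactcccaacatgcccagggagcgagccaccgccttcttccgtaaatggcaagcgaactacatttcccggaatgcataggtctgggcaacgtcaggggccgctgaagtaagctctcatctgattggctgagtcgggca
Capitals in the Mrpl9 sequence mark the core of the motif of NRF1 (nuclear respiratory factor, a regulator of nuclear genes for mitochondria), found on both strands in overlapping letters that begin 27 bases before the start.

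Motifs were searched by their letters on both strands of the windows. The core of GABP, an ETS-family activator of nuclear mitochondrial genes (CCGGAAG), was in 26 of 69 members (37.7%), against 16.8% of the tested genes in the promoter table and 9.93% of all genes in it. The NRF1 core (GCATGCG) was in 8 members (11.6%, against 6.43% of tested genes), and the YY1 core (ATGGCGG) in 13 (18.8%, against 7.87%). At least 1 of these 3 was in 37 members (53.6%, against 27.3%). The Sp1 box (GGGCGG) was in 34 members (49.3%, against 63.8% of tested genes), the CRE core (TGACGTC) in 4 (5.80%, against 5.66%) and the TATA box (TATAAA) in 5 (7.25%, against 9.39%). The full palindromic estrogen response element was in none of the 69, and in 0.0156% of tested genes. Of the 5 called members with a window, Mrpl9 held the NRF1 core and, after its start, the YY1 core, Mrpl50 held the YY1 core after its start, and Mrps7 held Sp1 boxes. Mrpl28 and Mrpl24 held none of these motifs. A match is a run of letters and no shown binding site.

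Beyond the 6 called genes, the members leaned upward in OVX saline against sham saline. Of 78 log2 differences, 54 were above 0 and the median was 0.10, while 50.5% of all genes tested were above 0 with a median of 0.01. The libraries of the 2 groups did not overlap for 21 members that were higher and 2 that were lower, which is 29.5% of the members against 24.5% of all genes. By direction, 26.9% of members were higher without overlap against 12.9% of all genes, and 2.56% were lower against 11.6%. At an unadjusted p under 0.05 there were 20 higher and 2 lower members, 28.2% against 24.7% of all genes. The median was 0.12 over the 46 members with a bacterial counterpart and 0.08 over the 31 mitochondria-specific ones. Higher without overlap were 28.3% of the former and 25.8% of the latter.

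Transcript length moved with this lean. The members are short, with a median length of 1314 bases, implied by the deposited counts and FPKM, against 2676 bases for all genes tested. Of the 78, 43 fell in the shortest of 5 equal length bins and 16 in the next. All genes tested had median log2 differences of 0.18, 0.08, 0.02, -0.06 and -0.12 from the shortest bin to the longest. The members' medians in the same bins were 0.20, 0.12, 0.04, 0.08 and -0.01, the last 2 over 3 and 4 genes. The medians of members and of all genes were thus closest in the shortest 3 bins. The share without overlap differed more: 14 of 43 members (32.6%) were higher in the shortest bin against 17% of all genes, and 6 of 16 (37.5%) in the next against 17.4%. With the length trend removed from the fit, Mrpl28, Mrps28 and Mrpl9 still passed, the members' median was 0.07 and that of all genes 0.04.

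**Figure D3:**
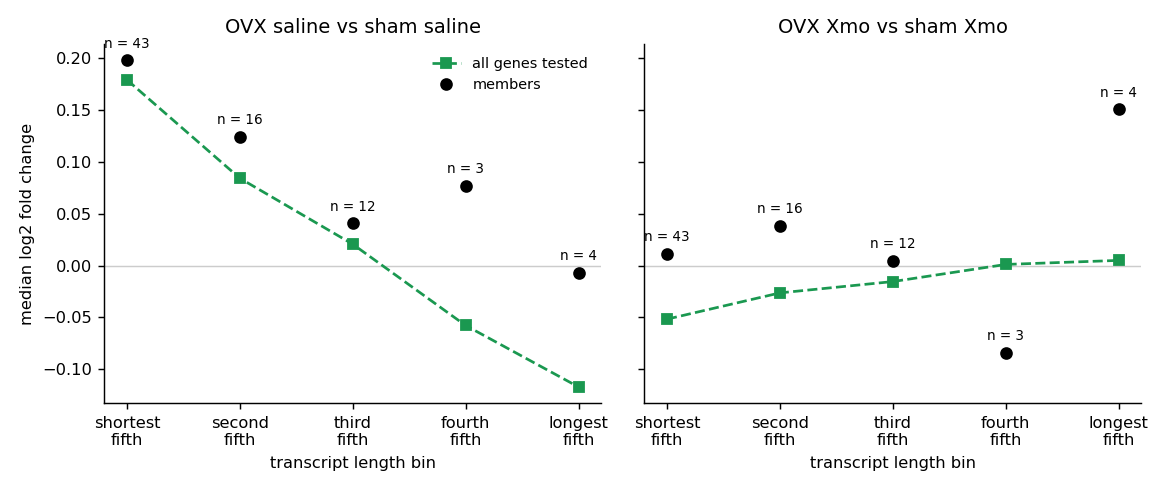
Median log2 fold change by transcript length bin, for all genes tested (squares) and for the members (circles, with their number), in OVX saline against sham saline and in OVX Xmo against sham Xmo. In the saline comparison both medians fall with length, from 0.18 and 0.20 in the shortest bin, while under Xmo the shortest bin is at -0.05 for all genes and 0.01 for members.

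The scaling moved the members and all genes alike. As an unscaled share of all counts, the 78 members summed to 1632, 1273 and 1434 CPM in sham saline. Sham Xmo had sums of 1667 to 1986 CPM, OVX saline 1882 to 1981 CPM and OVX Xmo 1743 to 1991 CPM, so sham saline lay below every other library. After TMM scaling the sums were 1717 ± 34.8 CPM in sham saline (SD, n = 3) against 1816 ± 83.3 in sham Xmo, 1829 ± 53.7 in OVX Xmo and 1833 ± 61.0 CPM in OVX saline (SD, n = 4 per group). The TMM-scaled ranges of sham saline (1685 to 1754) and sham Xmo (1709 to 1892) overlapped, and those of sham saline and both OVX groups did not, with the lowest OVX library at 1762 CPM. As a share of counts outside the mitochondrial genome, the sums were 1925 to 2045 CPM in sham saline. They were 2100 to 2387 CPM in sham Xmo, 2195 to 2375 in OVX saline and 2119 to 2320 in OVX Xmo, without overlap with sham saline. With library totals in place of TMM, 42 members were higher and 0 lower in OVX saline, against 5 and 1 with TMM. Those 42 are 53.8% of the members, where 24% of all genes were called without TMM. That change of scale moved the median of all genes from 0.01 to 0.33, and the members' median minus that of all genes was 0.10 without TMM and 0.09 with it.

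**Figure D4:**
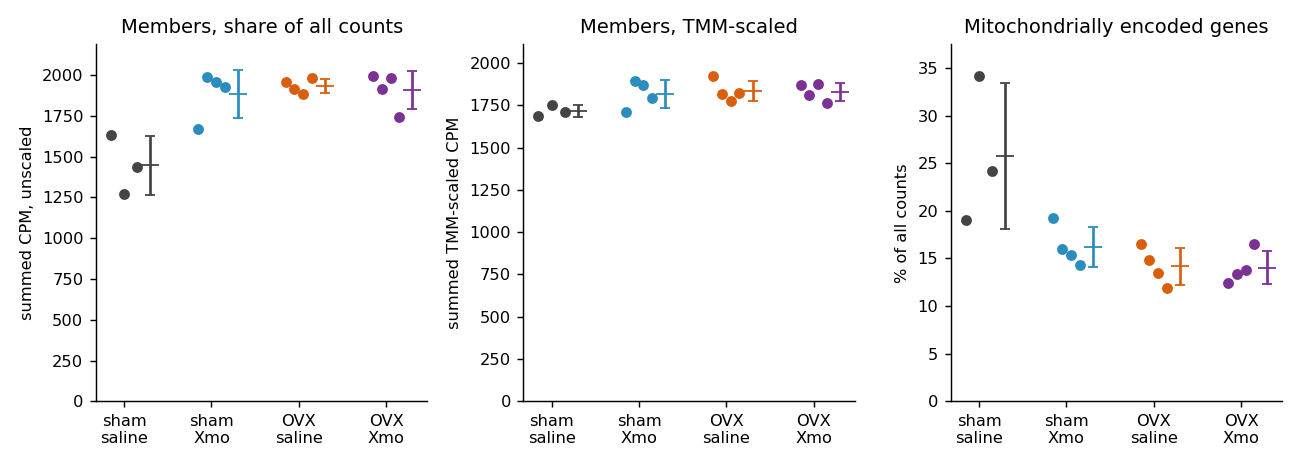
Summed level of the 78 members as a share of all counts (left) and after TMM scaling (middle), both in CPM, and the share of counts in 13 mitochondrially encoded protein genes in percent (right); points are libraries, bars the mean and SD. Sham saline is lowest at left (1273 to 1632 CPM), closer to the other groups in the middle (1685 to 1754 CPM) and highest on average at right (19.0% to 34.1%).

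Xanthohumol in sham-operated mice was compared with saline in the same surgery. Mrps28 (log2 difference 0.75, SE 0.15, edgeR adjusted p = 0.0280) and Mrpl28 (0.48, SE 0.10, adjusted p = 0.0297) rose, which is 2.56% of the members against 1.51% of all genes called and 0.721% called higher. The next 3 by p did not pass: Mrps24, a small-subunit protein, at 0.69 (adjusted p = 0.0673), Mrpl24 at 0.35 (adjusted p = 0.0837) and Mrpl11, a protein of the stalk base of the large subunit, at 0.30 (adjusted p = 0.0981). Of the 78 differences 54 were above 0, with a median of 0.10 against 0.03 for all genes, and 14 members (17.9%) were higher without overlap against 8.89% of all genes. Calls depended on single libraries, for these genes as for all genes. Without sham saline library 3, or without sham Xmo library 2, 3 or 4, neither gene passed. All genes called were then 0.0684%, 0.635%, 0.136% and 0.252%, in that order. Without sham saline library 2, Mrpl24 passed alone (1.28%, all genes 1.11%). Without sham Xmo library 1, Mrps24 and Mrps6 passed besides Mrpl28 and Mrps28 (5.13%, all genes 3.39%). With the length trend removed neither passed, and the members' median was 0.01, like that of all genes. Since this comparison and the one of OVX saline use the same 3 sham saline libraries, their results are not independent.

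Xanthohumol in ovariectomized mice gave 0 of 78 members past edgeR's test against OVX saline, where 0% of all genes passed. At an unadjusted p under 0.05 there were 2 members, Mrpl17 and Mrpl24 (2.56%, against 4.18% of all genes), and DESeq2 called 0. Mrpl17, a large-subunit protein, had 15.3, 16.8, 18.9 and 23.5 CPM in OVX saline and 21.4, 25, 22.9 and 26.1 CPM in OVX Xmo, and the groups overlapped. Its log2 difference was 0.36 (SE 0.16, edgeR adjusted p = 0.998). The other 4 with the smallest p were Mrpl24 at -0.20, Mrps2 at 0.16, Mrpl33 at -0.21 and Mrpl57 at 0.20, all at an adjusted p of 0.998. The median over members was 0.00, 39 of 78 were above 0, and no member's libraries were free of overlap, against 3.11% of all genes. For the genes called against sham saline, the differences between OVX Xmo and OVX saline were -0.11 for Mrpl28 (SE 0.09), -0.01 for Mrps28 (SE 0.13), -0.07 for Mrpl9 (SE 0.11), -0.09 for Mrps7 (SE 0.10) and 0.06 for Mrpl50 (SE 0.13).

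Ovariectomy under xanthohumol was examined as OVX Xmo against sham Xmo. Again 0 of 78 members passed edgeR's test, where 0.01% of all genes did, with 3 members at an unadjusted p under 0.05 (3.85%, against 10.2% of all genes) and 0 called by DESeq2. The libraries did not overlap for 3 members, 3.85% against 5.88% of all genes. Mrpl33, a large-subunit protein, had 13.9, 12.3, 14.4 and 13.3 CPM in the sham Xmo libraries, and the OVX Xmo libraries had 10.7, 9.18, 11.5 and 10.7 CPM. All OVX Xmo libraries lay below all sham Xmo libraries, and the log2 difference was -0.36 (SE 0.11, edgeR adjusted p = 0.3195). Mrpl33 lies within Gm43809 (mean of 6.6 counts) and shares 59.2% of its span with Rbks (mean of 52.3 counts), so some of its reads may be counted there. Next by p-value came Mrps2 at 0.23, Mrpl14 at 0.66 (SE 0.26, edgeR adjusted p = 0.413), Mrpl24 at -0.19 and Mrps27 at 0.24, none of which passed. The members' median was 0.02, against -0.02 for all genes, and the differences were 0.03 for Mrpl28 (SE 0.09) and -0.05 for Mrps28 (SE 0.13).

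OVX Xmo against sham saline changes both surgery and treatment. Mrpl28 (0.51, SE 0.10, edgeR adjusted p = 0.0335) and Mrps28 (0.69, SE 0.15, adjusted p = 0.0394) rose, 2.56% of the members against 1.19% of all genes called and 0.746% called higher. Mrpl44, a large-subunit protein with a ribonuclease-like fold, at 0.51, Mrps24 at 0.66 and Mrpl9 at 0.39 had adjusted p-values of 0.0753, 0.0755 and 0.0968 and did not pass. Of the members 58 were above 0, with a median of 0.12 against 0.01 for all genes, and 15 members (19.2%) were higher without overlap against 8.59% of all genes. Without sham saline library 2 or 3, or without OVX Xmo library 1, 2 or 3, neither gene passed, and 0.0101% to 0.0783% of all genes did. Without OVX Xmo library 4, Mrpl9 and Mrpl50 passed besides Mrpl28 and Mrps28 (5.13%, all genes 4.94%).

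**Figure D5:**
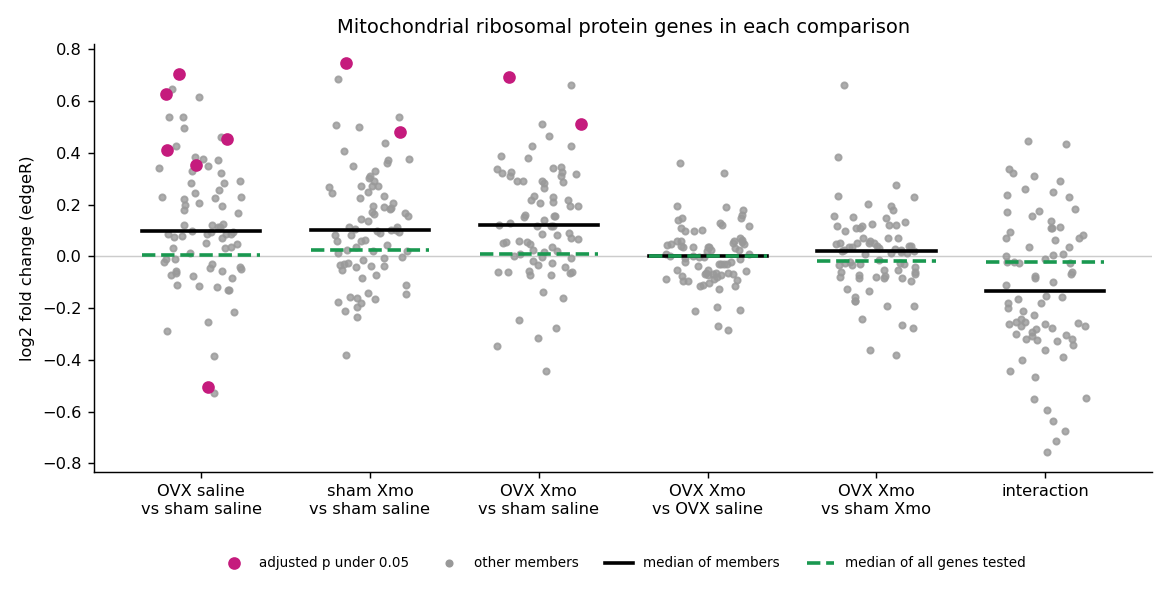
Log2 fold change of each of the 78 members in the 5 comparisons and the interaction; large points passed edgeR's test, bars are the median of members (solid) and of all genes tested (dashed). In the 3 comparisons against sham saline 6, 2 and 2 members are called, and the members' medians are 0.10, 0.10 and 0.12. In the 2 comparisons without sham saline none is called, and the medians are 0.00 and 0.02.

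The interaction, the Xmo difference after OVX less the Xmo difference after sham surgery, tests whether the response to xanthohumol differed between surgeries. By edgeR 0 of 78 members passed, where 0.416% of all genes did, with 2 higher and 10 lower members at an unadjusted p under 0.05 (15.4%, against 17.4% of all genes). The smallest p-values belonged to Mrpl28 (-0.59, SE 0.13, adjusted p = 0.0578), Mrpl24 (-0.55, SE 0.13, adjusted p = 0.0756) and Mrps28 (-0.76, SE 0.20, adjusted p = 0.0895), and DESeq2 called these 3. Mrpl9 at -0.44 and Mrps2 at 0.34 came next. Without sham Xmo library 1, Mrpl28 and Mrps28 passed (2.56%, all genes 1.52%), and without sham saline library 2, Mrpl24 passed (1.28%, all genes 1.25%). The median over members was -0.13 against -0.02 for all genes. In the shortest length bin the members' median was -0.24 and that of all genes -0.24, and with the length trend removed the medians were -0.01 for both.

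Within groups, the coefficient of variation of a member's CPM had a median of 9.50% and a range of 5.20% to 42.3%. The widest spread was in Mrps21, a small-subunit protein, which was singled out after its values were seen. The sham saline libraries had 10.8, 20.4 and 11.1 CPM, the sham Xmo libraries 12.6, 14.2, 27.4 and 25.7 CPM, the OVX saline libraries 11.3, 11.2, 13.0 and 24.3 CPM, and the OVX Xmo libraries 26.7, 11.5, 12.7 and 10.4 CPM. The libraries fell into a set of 5 between 20.4 and 27.4 CPM and a set of 10 between 10.4 and 14.2 CPM, and every group held at least 1 of the high ones. Mrps23, also of the small subunit and also chosen after its values were seen, ranged from 7.91 to 23.6 CPM. It had 10 libraries at 15 CPM or above and 5 at 11.5 CPM or below, and the low ones came from sham Xmo, OVX saline and OVX Xmo. The implied length of Mrps23 was 841 to 1249 bases in the 5 low libraries and 1285 to 1522 bases in the 10 high ones. Mrpl3, a large-subunit protein chosen the same way, differed in the length implied by its counts and FPKM, which weights its isoforms. It was 2763 ± 51.5 bases in sham saline (SD, n = 3), 2346 ± 379 bases in sham Xmo, 1909 ± 113 in OVX Xmo and 1957 ± 71.5 in OVX saline (SD, n = 4 per group), with sham saline above every OVX library.

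Other genes of mitochondrial translation were read from lists chosen by function. Their counts in OVX saline against sham saline stand beside 6.24% of all genes called there, 3.65% higher and 2.59% lower. In OVX saline against sham saline, 0 of 5 ribosome proteins without the Mrp name and 0 of 11 translation factors passed, with medians of 0.19 and 0.03. Of 20 genes for mitochondrial aminoacyl-tRNA synthesis 2 rose (10%), with a list median of 0.26. These were the phenylalanine enzyme Fars2 (0.62, SE 0.14, edgeR adjusted p = 0.0238) and the cysteine enzyme Cars2 (0.60, SE 0.16, adjusted p = 0.0441). Of 22 genes for assembly of the mitochondrial ribosome 3 rose (13.6%) and none fell, with a median of 0.20. They were the pseudouridine synthase Rpusd4 (0.72, SE 0.17, edgeR adjusted p = 0.0260), the GTPase Mtg1 (0.56, SE 0.14, adjusted p = 0.0328) and the helicase Ddx28 (0.62, SE 0.17, adjusted p = 0.0457), all 3 known to act on the large subunit. Of 9 genes that insert or monitor the products 2 rose (22.2%). By edgeR's test these were the prohibitin Phb (0.58, SE 0.11, adjusted p = 0.0166) and the protease Lonp1 (0.44, SE 0.11, adjusted p = 0.0322). Of 10 coactivators and factors of nuclear mitochondrial genes 1 passed (10%). The coactivator Ppargc1a fell from 73.9 ± 9.66 CPM in sham saline (SD, n = 3) to 48.2 ± 2.71 CPM in OVX saline (SD, n = 4). Its log2 difference was -0.62 (SE 0.12, edgeR adjusted p = 0.0165). None of 10 genes of mitochondrial transcription and mRNA stability passed. Where genes passed, the shares of these short lists rest on 1 to 3 genes each.

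The RNA partners of the ribosomal proteins, and the genes the ribosome translates, lay on the other side of 0. The ribosomal RNAs mt-Rnr1 and mt-Rnr2 had log2 differences of -0.89 (SE 0.33, edgeR adjusted p = 0.108) and -0.92 (SE 0.31, adjusted p = 0.0874) in OVX saline against sham saline and did not pass. Of the 13 mitochondrially encoded protein genes 10 fell (76.9%, against 2.59% of all genes), with a median of -1.47. Of the 83 tested cytosolic ribosomal protein genes 20 rose (24.1%, against 3.65% of all genes) and none fell. Their median was 0.27, against 0.10 for the mitochondrial ones. In sham Xmo against sham saline, 1.51% of all genes passed. There Fars2 rose (0.61, SE 0.14, edgeR adjusted p = 0.0447), 1 of the 20 genes of its list (5%). Of the cytosolic ribosomal protein genes 5 rose (6.02%), and of the mitochondrially encoded protein genes 8 fell (61.5%). In OVX Xmo against OVX saline, 77 of the 83 cytosolic genes had differences below 0 with a median of -0.18 and none passed, while 39 of the 78 mitochondrial members were above 0.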

How the data were processed

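Gene expression was measured in 15 hippocampal libraries prepared, per the labels' protocols, with Illumina's TruSeq RNA kit. StringTie 1.3.3b, Bowtie2 2.3.2, Trimmomatic 0.36, FastQC 0.11.2 and the build GRCm38.p6 are named, with no roles, per the submitters' processing notes. The authors deposited whole-number counts, FPKM and TPM per gene. A further 12 columns carried names that match no sample and were not used, and the miRNA libraries were not analysed here.

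Counts were fitted with edgeR 4.0.16 (R 4.3.3) in 1 quasi-likelihood model over the 4 groups, with filterByExpr, TMM scaling, 11 residual degrees of freedom, Benjamini-Hochberg adjustment over 19969 genes and a threshold of 0.05. SE is the size of the log2 fold change over the root of its F. The script was tested on simulated data. Deposited TPM was used for levels between genes, and the deposited FPKM with counts for implied lengths. Alternatives were DESeq2 1.42.0, no filter, no TMM, only the groups compared, mitochondrial genes removed, a length trend removed (spline with 5 degrees of freedom), a replicate block, and each library left out.

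Named members were at most 10 called in each direction per comparison, or, with fewer than 3 called, the 5 with the smallest p. They also included the 5 highest and 5 lowest by TPM, members named for the other subunit and the Mrps18 paralogs. From other lists, at most 4 called genes were named. The members, lists and rules were chosen with earlier results of these data known.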

Additional observations from a re-analysis of the deposited data

Results flagged for a closer look

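In groups of 4 libraries, 96 sets of values were examined, of the named members and of the members' summed levels. In 4 of them, all of named members, 1 library lay farther from the rest than Dixon's 95% critical value allows. Chance flags about 1 in 20 groups, so this number is near what chance gives. Mrpl1 had 18.8 CPM in sham Xmo library 1 and 12.3 to 13.2 CPM in the other 3. Mrpl24 had 46.3 CPM in OVX Xmo library 1 and 39.9 to 40.7 CPM in the other 3. Mrps15 had 34.7 CPM in sham Xmo library 3, against 32.1 to 32.5 CPM. Mrps30 had 10.3 CPM in sham Xmo library 4, against 13.2 to 13.7 CPM.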

How the results depend on the processing

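Every called gene was called against the 3 sham saline libraries, so the calls rest on that group. In OVX saline against sham saline, where 6 members (7.69%) and 6.24% of all genes passed, the count was 12 with DESeq2 (15.4%, all genes 11.6%), 3 with the length trend removed (3.85%, all genes 5.63%), 42 with library totals without TMM (53.8%, all genes 24%), 2 with no filter (2.56%, all genes 1.63%) and 1 with the replicate block (1.28%, all genes 0.891%). In sham Xmo against sham saline, where 2 passed (2.56%, all genes 1.51%), it was 6 with DESeq2 (7.69%, all genes 5.56%) and 35 without TMM (44.9%, all genes 17.8%). It was 0 with the length trend removed (all genes 1.06%), with no filter (0.311%), with only the groups compared (0.0315%) and with the replicate block (0.185%). In OVX Xmo against sham saline, where 2 passed (2.56%, all genes 1.19%), it was 6 with DESeq2 (7.69%, all genes 5.6%) and 37 without TMM (47.4%, all genes 17.7%). It was 0 with no filter (all genes 0.161%), with only the groups compared (0.0212%) and with the replicate block (0.01%). In the interaction, where 0 passed (all genes 0.416%), it was 3 with DESeq2 (3.85%, all genes 4.27%) and 5 without TMM (6.41%, all genes 5.92%). Leaving out 1 library gave 1 to 4, 0 to 4, 0 to 4 and 0 to 2 calls in these comparisons, and 0 to 0 in the other 2. All genes called were then 0.391% to 4.78%, 0.0684% to 3.39%, 0.0101% to 4.94% and 0.0301% to 1.52%, and at most 0.0151% in the other 2. Members' medians without TMM were 0.43 (all genes 0.33), 0.40 (0.32), 0.43 (0.31) and -0.46 (-0.34) in the same order. With the length trend removed they were 0.0112 (all genes 0.0068) in sham Xmo against sham saline and -0.0120 (-0.0069) in the interaction. In the 2 comparisons without sham saline they were 0.0883 (0.0274) in OVX Xmo against sham Xmo and 0.0409 (-0.0039) in OVX Xmo against OVX saline. Leaving out 1 library gave medians of 0.0514 to 0.1145 in OVX saline against sham saline and -0.1660 to -0.0718 in the interaction. The cause of these changes was not tested. No named gene reversed its direction under the settings run. Of their alternative values 79 lost a call, 24 gained one and 376 did neither. Same-numbered libraries did not deviate together, with correlations from -0.215 to 0.186 over 21 pairs, 2 of them above 0.1, and 2 of 15 libraries matched their own number best. The replicate numbers were therefore not taken as pairs, and the replicate block changed counts as given above. Depth was at least 20848661 counts per library, and the lowest member, Mrpl53, had at least 23 counts in each.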
